A study of Mus musculus with 34 samples.

Results

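The uninjured side of a mouse spinal cord study was examined: knockout (KO) against wild type (WT) in the control cords labelled sham, 8 of the 34 arrays of the series. The members are the 4 arrays titled sham KO and the 4 titled sham WT, and the comparison ran over all probe sets with a measurable level, a probe set being the group of probes on the array that reads 1 transcript. The library labelled sham KO replicate 2 keeps signal on probe sets of Ntrk2, the gene of trkB, that lose it in the other sham KO arrays. Each comparison was therefore made with all 8 sham arrays and again with the other 3 sham KO arrays against the same 4 sham WT arrays. The sham KO mice carried the trkB.T1 KO genotype and the sham WT mice the trkB.T1 WT genotype. Both were C57BL/6J mice past backcross generation N20, 8 to 12 weeks old, and the tissue was thoracic spinal cord. The labels call these cords baseline or sham but code them Nav, and do not say whether they had surgery. The other 26 arrays came from cords at day 1 (4 KO, 5 WT), day 3 (5 KO, 4 WT) and day 7 (4 KO, 4 WT) after a moderate contusion, with the same strain, age and tissue. They serve here to estimate the spread between arrays and to show whether a sham difference was also present after injury. The labels call the arrays biological replicates and do not say how the allele was made, which animals shared a litter or which were processed together.

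TrkB, the product of Ntrk2, is the receptor that binds brain-derived neurotrophic factor. Its full-length form carries a kinase domain and passes the signal of the bound neurotrophin into the cell, while trkB.T1 is a truncated form that lacks the kinase domain, binds the same ligand and is the main TrkB form of astrocytes. A deletion of trkB.T1 therefore removes some Ntrk2 transcripts and leaves others, and different probe sets of the gene can behave differently. The comparison asks what the cord lacking this form looks like before any injury.

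The deposited values are log2 signals, so a difference of 1 is a 2-fold difference. The lowest value in the table was 2.17, and 33.6% of the values of the sham arrays lay within 0.1 of it, so a gene near 2.17 has no measurable level and a difference from a group at that floor is a lower bound. The medians of the 8 sham arrays ran from 4.14 to 4.20. Markers of central nervous tissue were bright: the mean of 19 astrocyte genes was 11.83 to 11.87 in sham KO arrays and 11.82 to 11.88 in sham WT arrays, and Mbp, the myelin basic protein, read 15.69 to 15.76 in KO and 15.75 to 15.82 in WT. These markers do not show the level of the cord or whether other tissue was attached. The number of arrays, 4 against 4, limits the precision.

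Ntrk2 signal was lost on 2 of its probe sets in 3 of the 4 sham KO arrays. On 1420838_at, sham KO replicates 1, 3 and 4 read 4.62, 3.31 and 4.91, the library labelled sham KO replicate 2 read 9.46, and the sham WT arrays read 10.28, 10.19, 10.42 and 10.67. On 1435196_at, sham KO replicates 1, 3 and 4 all read 2.83, its minimum over the 34 arrays, the library labelled sham KO replicate 2 read 8.59, and sham WT arrays read 9.74, 9.84, 9.73 and 9.58. The library labelled sham KO replicate 2 thus lay about 1 log2 unit below the WT arrays and several units above the other KO arrays, and the injured KO groups, with means of 3.90 to 4.18 on 1420838_at and 2.83 on 1435196_at, resembled the other 3. The KO minus WT difference was -4.82 ± 0.66 (SE) on 1420838_at with 4 KO arrays (limma, adjusted p = 0.000329) and on 1435196_at -5.45 ± 0.67 (adjusted p = 0.000142), a lower bound. With the library labelled sham KO replicate 2 left out, the differences were -6.11 and -6.90, given with no test because that library is left out for its Ntrk2 signal. Adjusted p-values here and below are limma's, with Benjamini-Hochberg adjustment over all 24573 probe sets tested. Each SE comes from the same fit, so it reflects the spread within all groups, the injured ones included.

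The other Ntrk2 probe sets were not called lower in KO cord. The probe set 1458622_at, the brightest of the gene, read 11.37, 11.38, 11.22 and 11.27 in sham KO arrays and 11.10, 11.14, 11.09 and 11.10 in sham WT arrays. On 1435305_at the values were 10.60, 10.64, 10.50 and 10.62 in sham KO and 10.30, 10.41, 10.33 and 10.26 in sham WT. On both, every KO array lay above every WT array, the library labelled replicate 2 included, by 0.20 ± 0.21 and 0.26 ± 0.19 (SE), and neither difference passed the test (adjusted p = 1). On 1437560_at the KO arrays read 7.82 to 7.97 and the WT arrays 7.45 to 7.84, with ranges that overlapped. The 3 remaining Ntrk2 probe sets were dim, between 2.17 and 4.37 in KO arrays and between 2.17 and 4.48 in WT arrays. Where each probe set lies along the gene was not analysed here.

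**Figure D1:**
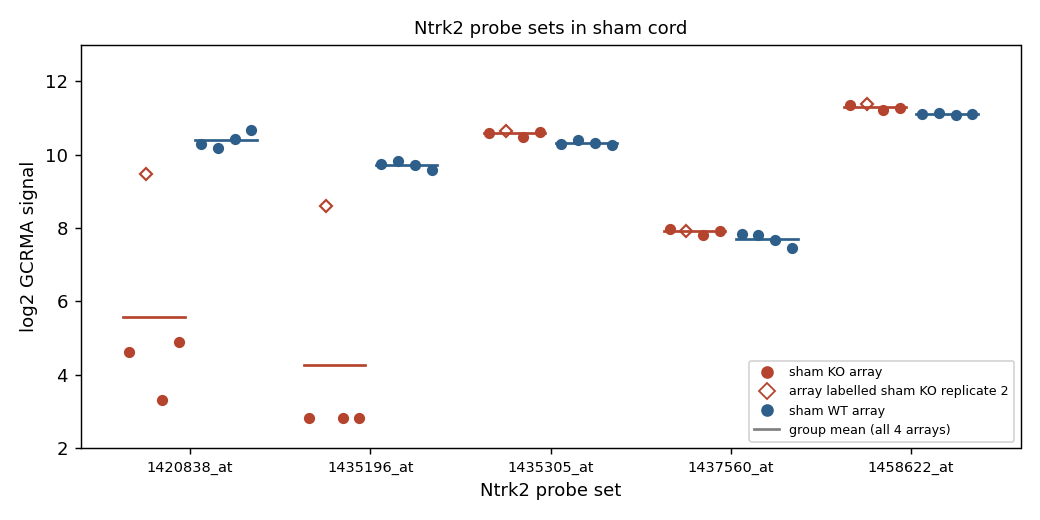
Log2 signal of 5 Ntrk2 probe sets (x axis) in each sham array, KO left of WT; points are arrays, lines are means of 4 arrays, and the open diamond is the array labelled sham KO replicate 2. On 1420838_at and 1435196_at 3 KO arrays lie at 4.91 or less while the diamond lies at 9.46 and 8.59; on the other 3 probe sets the KO arrays lie at or slightly above the WT level.

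No tested gene within 10 protein-coding genes of Ntrk2 was called, a window that ends short of Dapk1, the 12th, described below. Of the 10 protein-coding genes on each side of Ntrk2 in the RefSeq gene order of assembly GRCm38.p6, 12 of 20 had a tested probe set. Their KO minus WT differences ran from -0.128 to 0.064, with an adjusted p of 1 for each. The other members of the neurotrophin system were also near their WT level. Of 16 tested genes for neurotrophins, their other receptors and adaptors, 0 were called, and the differences ran from -0.22 to 0.196 around a median of -0.025, against a median of 0.0072 over all 11998 genes tested. Bdnf, the ligand of TrkB, differed by 0.06, Ntrk3, the receptor of neurotrophin-3, by 0.00 and Ngfr, the p75 receptor shared by all neurotrophins, by 0.09.

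Across the whole array few probe sets separated the genotypes. With 8 sham arrays, 13 of 24573 probe sets passed an adjusted p of 0.05 (0.0529%), 9 higher and 4 lower in KO, and 1106 (4.5%) had an unadjusted p under 0.05. These 13 named 9 genes: Hoxd10, Hoxa10, Hoxc10, Hoxd9, Egr2, Slc39a8 and Cd59a were higher in KO, Ntrk2 and Slc34a3 were lower, and 1 lower probe set had no single gene name. Without the library labelled sham KO replicate 2, 20 probe sets were called (0.0814%), 16 higher and 4 lower, and 1160 had an unadjusted p under 0.05; the 2 Ntrk2 probe sets are among the 20 and are no evidence there, since that library was left out for their signal. Between the 2 sets, 10 probe sets were shared, 3 were called with 8 arrays alone (Hoxd9, Hoxd10 and Slc34a3) and 10 without that library alone (those of Vwf, Cnmd, Slc2a12, Dapk1, Irs4, 2 of Gas2l3, and 3 with no single gene name). A second description used no test. Of 11998 genes, each read by its brightest probe set, 31 had all KO arrays above all WT arrays with a mean difference of at least 1.5-fold (0.258%) and 12 had the reverse (0.1%). Without that library the counts were 98 (0.817%) and 16 (0.133%), with 3 KO arrays in place of 4.

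Hox genes encode homeodomain transcription factors arranged in 4 chromosomal clusters, and the order of genes along a cluster follows the order of their expression along the body axis. Paralogs with high numbers are expressed in the caudal cord, and group 10 members pattern the lumbar level. Adult spinal cord keeps much of this positional pattern. In sham cord the called Hox genes were the most caudal ones that the array detected, in 3 of the 4 clusters.

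The promoters of the called Hox genes are shown because these genes differed together. They are the RefSeq sequences of GRCm38.p6, each a window of 300 bases that spans a transcript start and lies mostly before it, on the strand of the gene, with each CpG dinucleotide in capitals. For Hoxa10, the more upstream of its 2 listed starts was taken. Hoxa10 lies at chr6:52240805-52241104 on the minus strand, Hoxd9 at chr2:74697513-74697812 on the plus strand and Hoxd10 at chr2:74691641-74691940 on the plus strand.
Hoxa10: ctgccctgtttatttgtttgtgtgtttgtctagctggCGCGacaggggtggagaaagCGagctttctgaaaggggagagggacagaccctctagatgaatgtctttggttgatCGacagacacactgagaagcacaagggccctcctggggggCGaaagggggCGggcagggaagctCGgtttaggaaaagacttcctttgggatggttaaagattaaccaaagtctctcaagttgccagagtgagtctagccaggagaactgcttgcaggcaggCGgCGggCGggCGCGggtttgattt
Hoxd9: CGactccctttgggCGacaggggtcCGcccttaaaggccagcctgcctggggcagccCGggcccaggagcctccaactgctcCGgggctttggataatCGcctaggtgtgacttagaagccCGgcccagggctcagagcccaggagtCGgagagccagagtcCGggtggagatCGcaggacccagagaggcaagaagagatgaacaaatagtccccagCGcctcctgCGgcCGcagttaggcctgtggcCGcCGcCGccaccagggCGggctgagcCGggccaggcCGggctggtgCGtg
Hoxd10: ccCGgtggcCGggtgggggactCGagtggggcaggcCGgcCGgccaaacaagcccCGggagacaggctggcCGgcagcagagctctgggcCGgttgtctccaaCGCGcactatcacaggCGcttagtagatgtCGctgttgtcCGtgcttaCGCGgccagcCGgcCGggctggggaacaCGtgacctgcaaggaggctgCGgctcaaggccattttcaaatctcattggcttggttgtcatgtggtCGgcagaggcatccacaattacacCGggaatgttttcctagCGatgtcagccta
The Hoxa10 window held 12 CpG dinucleotides, the Hoxd9 window 20 and the Hoxd10 window 22, against a median of 7 over 32851 RefSeq mouse promoters of the same length. Each was searched on both strands for 2 motifs, TTTATNG, a site form of caudal-class Hox proteins, and TGATTNAT, a site form of Hox with Pbx. None of the 3 windows held either motif in these letters, and 10.9% and 3.2% of all promoters did. Hoxc10 was not analysed here for sequence.

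Hoxd10 was near the floor in every sham WT array and well above it in every sham KO array. It read 6.73, 8.19, 8.33 and 8.10 in KO and 2.35, 2.43, 2.17 and 2.35 in WT, a difference of 5.51 ± 1.07 (SE) that is a lower bound (adjusted p = 0.0386). Hoxa10 read 8.58, 8.60, 8.72 and 8.94 in KO and 6.89, 6.89, 4.76 and 5.88 in WT, higher by 2.60 ± 0.35 (adjusted p = 0.000234). The KO arrays were tightly grouped for Hoxa10 and the WT arrays were spread over more than 2 log2 units. Hoxc10 read 8.18, 8.62, 8.52 and 8.53 in KO and 6.90, 7.28, 6.11 and 6.32 in WT, higher by 1.81 ± 0.27 (adjusted p = 0.000825). Hoxd9, the group 9 neighbour of Hoxd10, read 8.84, 8.95, 8.76 and 8.81 in KO and 7.87, 7.89, 6.73 and 7.55 in WT, higher by 1.33 ± 0.26 (adjusted p = 0.0424). For all 4 genes the groups did not overlap, and the library labelled sham KO replicate 2, which stands with WT on other genes, stood with the other KO arrays here. Without it the differences were 2.64 ± 0.38 for Hoxa10 (adjusted p = 0.000538), 1.76 ± 0.29 for Hoxc10 (0.005), 1.29 ± 0.29 for Hoxd9 (0.095) and 5.40 ± 1.18 for Hoxd10 (0.0842), so that Hoxd9 and Hoxd10 no longer passed. The Hoxd10 call was also lost without any 1 of sham KO replicates 3 and 4 and sham WT replicates 1 to 4, and the Hoxd9 call without any 1 of sham KO replicates 1, 3 and 4 and sham WT replicates 3 and 4. The adjusted p was then 0.0732 to 0.142 for Hoxd10 and 0.0742 to 0.252 for Hoxd9, counting the loss without replicate 2. Leaving out sham KO replicate 3 or 4 in addition to replicate 2 ended the Hoxc10 call (adjusted p = 0.0602 to 0.0621).

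No other tested Hox gene passed the test. Of 23 tested Hox genes, 4 were called higher and 0 lower, 12 had a positive difference, and the median was 0.003. The median was -0.001 after quantile normalization, 0.018 with 3 KO arrays (without replicate 2), and -0.033 (without sham WT replicate 1) to 0.041 (without sham WT replicate 3) when 1 array was left out. The other 19 genes ran from -0.33 for Hoxa7 to 0.27 for Hoxb9 and none passed the test. For Hoxa7 the groups did not overlap, with KO at most 7.685 and WT at least 7.689. Nor did they for Hoxb9, with KO at least 8.241 and WT at most 8.231. The thoracic level genes were bright and close between genotypes. Hoxc8 read 10.94, 10.81, 10.93 and 10.78 in KO and 11.04, 11.04, 11.18 and 11.02 in WT, -0.20 ± 0.10 (SE), with no overlap. Hoxa9, the neighbour of Hoxa10, read 11.61, 11.63, 11.42 and 11.54 in KO and 11.41, 11.52, 11.23 and 11.12 in WT, 0.23 ± 0.12 (SE). Hoxd8, next to Hoxd9, differed by 0.12 ± 0.12, and Hoxc9, next to Hoxc10, by -0.10. Of the genes more caudal still, Hoxa13, Hoxb13, Hoxc13, Hoxd11, Hoxd12 and Hoxd13 read at most 2.23 in every sham array, and Hoxa11 read up to 3.21 in KO and 2.17 in WT. Among 4 tested cofactors of Hox proteins, 0 were called. Meis2 read 10.30 to 10.33 in KO and 9.91 to 10.13 in WT, 0.31 ± 0.14 (SE, adjusted p = 1), with no overlap.

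**Figure D2:**
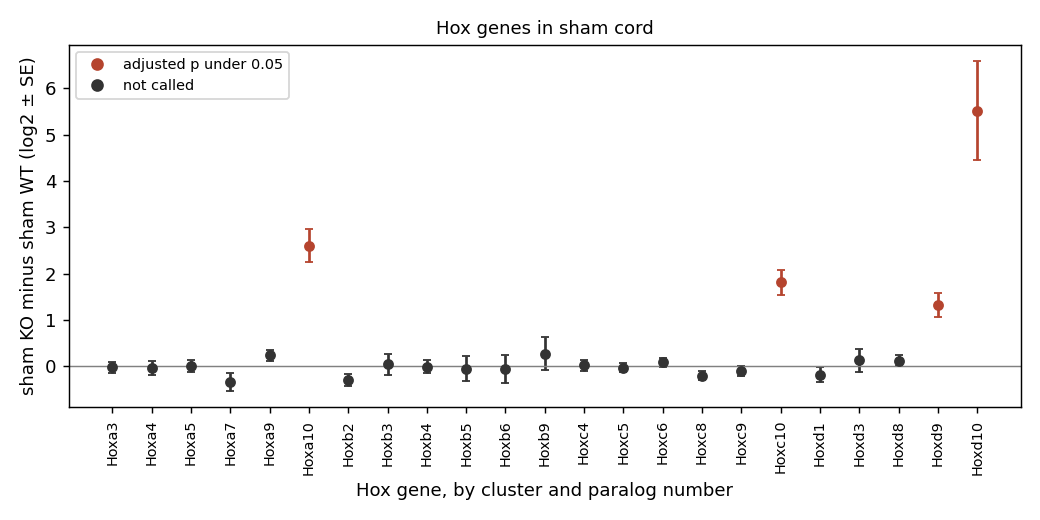
Sham KO minus sham WT difference (log2, points with SE bars) of the 23 tested Hox genes, ordered along the x axis by cluster and paralog number. Hoxa10, Hoxc10, Hoxd9 and Hoxd10 lie between 1.33 and 5.51, and the other 19 lie between -0.33 and 0.27.

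The sham WT group had the lowest mean of the 8 groups for each of these 4 genes. Hoxa10 averaged 8.64 in KO and 8.53 in WT at day 1, 7.93 and 7.78 at day 3, and 8.42 and 7.97 at day 7, against 8.71 in sham KO and 6.11 in sham WT. Hoxc10 averaged 8.52 in KO and 8.17 in WT at day 1, 7.74 and 7.67 at day 3, and 8.11 and 7.89 at day 7. Hoxd9 averaged 8.58 in KO and 8.27 in WT at day 1, 7.75 and 7.99 at day 3, and 8.37 and 8.21 at day 7. Hoxd10 averaged 6.99 in KO and 6.29 in WT at day 1, 4.74 and 4.82 at day 3, and 6.92 and 5.53 at day 7. Each injured WT group thus had a higher mean than sham WT for each gene, although single day 3 arrays of both genotypes read near the floor for Hoxd10, and the KO mean of Hoxd10 was above the WT mean at days 1 and 7. The difference between the sham and the mean injured KO minus WT difference was tested as its own contrast, in which 2 of 24573 probe sets were called (0.00814%; 948 at an unadjusted p under 0.05), those of Hoxa10 and Slc39a8. It was 2.37 ± 0.40 for Hoxa10 (adjusted p = 0.0215), 1.60 ± 0.30 for Hoxc10 (0.0665), 1.25 ± 0.30 for Hoxd9 (0.381) and 4.84 ± 1.23 for Hoxd10 (0.466). Without the library labelled sham KO replicate 2, 6 probe sets were called in this contrast (0.0244%; 1016 at an unadjusted p under 0.05), and Hoxa10 was among them (2.41, adjusted p = 0.0211). The labels name no level within the thoracic cord for any piece, and its part in these values was not tested.

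**Figure D3:**
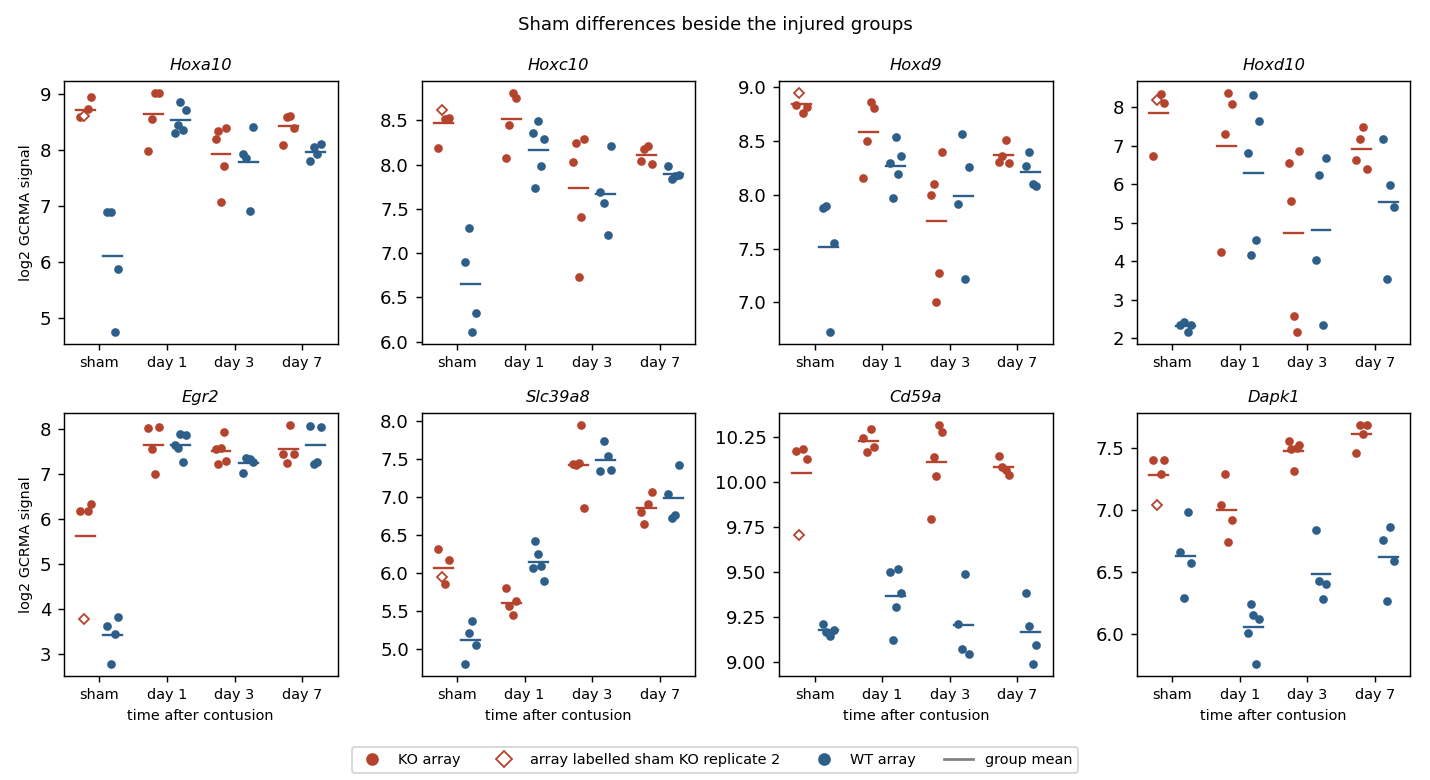
Log2 signal of 8 genes in every array, by time after contusion (x axis), KO left of WT at each time; points are arrays, lines are group means, and the open diamond is the array labelled sham KO replicate 2. The 4 Hox genes separate by genotype in sham cord, with sham WT low; Egr2 is high in every injured group; Cd59a and Dapk1 are higher in KO at each time.

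Cd59a was higher in KO cord both before and after injury. It encodes a membrane-anchored protein that blocks assembly of the membrane attack complex of complement. On 1418710_at it read 10.18, 9.71, 10.19 and 10.13 in sham KO and 9.21, 9.17, 9.15 and 9.18 in sham WT, a difference of 0.87 ± 0.11 (SE, adjusted p = 0.000234). The WT arrays lay within 0.1 of each other, every KO array lay above them, and the lowest KO array was the library labelled replicate 2. A second probe set, 1429830_a_at, gave 9.46, 8.97, 9.55 and 9.55 in KO and 8.48, 8.31, 8.35 and 8.59 in WT, 0.95 ± 0.13 (adjusted p = 0.000357). Without that library the differences were 0.99 ± 0.11 (adjusted p = 7.75e-06) and 1.08 ± 0.13 (1.49e-05). At 1418710_at the injured groups averaged 10.23 in KO and 9.37 in WT at day 1, 10.11 and 9.21 at day 3, and 10.08 and 9.17 at day 7, and the sham difference exceeded the mean injured difference by -0.02 ± 0.13 (adjusted p = 1). No other complement gene passed. Of 11 tested members of the complement list 1 was called, the list median was -0.038 (0.032 without sham WT replicate 3), and the C1q genes C1qa, C1qb and C1qc differed by -0.22, -0.26 and -0.25.

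Dapk1, a calcium and calmodulin regulated protein kinase, showed the same kind of pattern. It is the 12th protein-coding gene after Ntrk2 on chromosome 13 in the RefSeq order. It read 7.41, 7.04, 7.29 and 7.41 in sham KO and 6.66, 6.29, 6.99 and 6.57 in sham WT, 0.66 ± 0.14 (SE, adjusted p = 0.11) with 8 arrays and 0.74 ± 0.15 (adjusted p = 0.0472) without the library labelled replicate 2. The groups did not overlap. The injured groups averaged 7.00 in KO and 6.05 in WT at day 1, 7.48 and 6.49 at day 3, and 7.62 and 6.62 at day 7. The call was lost without any further 1 of sham KO replicates 1, 3 and 4 or sham WT replicates 1, 2 and 4 (adjusted p = 0.104 to 0.296).

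Egr2 was higher in sham KO cord, in 3 of its 4 arrays by much more than in the fourth. Egr2 encodes a zinc finger factor that Schwann cells need to make peripheral myelin, and it is also an immediate early gene. On 1427682_a_at it read 6.18, 3.78, 6.18 and 6.34 in KO and 3.62, 2.80, 3.45 and 3.84 in WT, a difference of 2.19 ± 0.36 (SE, adjusted p = 0.00507). On 1427683_at it read 4.56, 3.29, 4.76 and 5.63 in KO and 2.21, 2.34, 2.84 and 2.21 in WT, 2.16 ± 0.33 (adjusted p = 0.00154). The low KO value on both was that of the library labelled sham KO replicate 2, inside the WT range on the first probe set. Without it the differences were 2.80 ± 0.26 (adjusted p = 1.15e-07) and 2.59 ± 0.30 (adjusted p = 1.08e-05). Without sham KO replicate 4 the first probe set, at 1.95, did not pass (adjusted p = 0.0597). In all injured groups the first probe set averaged between 7.25 and 7.65, above every sham array, with KO and WT at 7.65 and 7.65 at day 1, 7.51 and 7.25 at day 3, and 7.56 and 7.65 at day 7. The sham difference exceeded the mean injured one by 2.13 ± 0.42 with 8 arrays (adjusted p = 0.0801) and by 2.75 without that library (adjusted p = 7.4e-06). Among 26 tested immediate early and stress genes Egr2 was the 1 called, and 19 had a positive difference, against 53.1% of all genes. The list median was 0.098, and 0.223 without that library. Leaving out 1 sham array moved it between 0.037 (without sham WT replicate 2) and 0.252 (without sham WT replicate 3). The Egr2 relatives Egr1 and Egr3 differed by 0.02 and 0.19.

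Other genes of peripheral myelin read high in the same KO arrays. Of 9 tested Schwann cell and nerve root genes, 8 had a positive difference and the median was 0.92, against 53.1% positive and a median of 0.0072 over all genes, and 1 was called, Egr2. Pmp2, a lipid binding protein of peripheral myelin, read 5.41, 2.52, 7.48 and 7.78 in KO and 2.81, 2.67, 4.00 and 2.53 in WT. Pmp22, a main membrane protein of peripheral myelin, read 11.91, 11.06, 12.53 and 12.78 in KO and 11.09, 11.02, 11.37 and 11.12 in WT. In both the library labelled sham KO replicate 2 stood with WT and the other 3 KO arrays above all WT arrays. Ncmap, a protein of noncompact myelin, read 6.62, 4.84, 6.70 and 7.68 in KO and 4.84, 5.81, 5.72 and 5.30 in WT, and Dhh, a signal from Schwann cells to the nerve sheath, read 3.69, 2.28, 4.18 and 4.72 in KO and 2.28, 3.41, 2.46 and 2.45 in WT. None of these 4 passed the test with 8 arrays (adjusted p = 0.687 to 1) or without that library (adjusted p = 0.0725 to 0.838). The mean of the 9 genes was 7.16, 5.96, 7.59 and 7.89 in KO and 5.98, 6.14, 6.29 and 6.09 in WT, and 6.60 to 8.37 in the injured arrays. Without that library 7 of the 9 had all KO arrays above all WT arrays by at least 1.5-fold, against 0.817% of all genes in the same 7 arrays. Sox10 and Cdh19 were close to WT, at -0.03 and 0.20, Foxd3 and Gfra3 read 2.32 or less in all sham arrays, and 2 tested sensory neuron genes of the dorsal root ganglion differed by 0.084 and 0.223. In bulk tissue, more cells of a type and more RNA per cell cannot be told apart, and the part of attached nerve root in these values was not tested.

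Skeletal muscle genes varied more between arrays than between genotypes. All 24 tested muscle genes had a positive difference, with a median of 2.35, yet 0 were called and 0 separated the groups. The mean of the 24 was 6.35, 7.69, 7.95 and 9.12 in KO and 3.79, 7.57, 3.66 and 7.04 in WT, so that sham WT replicates 1 and 3 were low and the other WT arrays overlapped the KO arrays. Acta1, skeletal muscle actin, read 9.15, 11.12, 11.21 and 12.41 in KO and 4.08, 10.76, 4.08 and 10.36 in WT. Tnnc2, the calcium sensor of fast muscle, read 9.04, 10.92, 10.62 and 12.04 in KO and 2.87, 10.56, 2.38 and 9.78 in WT. In the injured arrays the mean of the list ran from 3.56 to 11.78. The order of arrays differed from that of the Schwann list: the library labelled sham KO replicate 2 had more muscle signal than sham KO replicate 1 and less Schwann signal.

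Genes of the meninges and perivascular fibroblasts set the library labelled sham KO replicate 2 and sham WT replicate 1 apart from the other sham arrays. The mean of 15 such genes was 8.70, 6.14, 8.89 and 8.58 in KO and 6.02, 7.74, 9.35 and 8.12 in WT. Of the 15, 10 had a positive difference (median 0.23) and 0 were called. Both numbers turned on single arrays: with 3 KO arrays, the library labelled replicate 2 left out, 14 were positive with a median of 0.944, without sham WT replicate 3, 13 with 0.871, and without sham WT replicate 1, 6 with -0.06. Without sham KO replicate 1, 3 or 4 the median was 0.04, 0.005 or 0.159, and without sham WT replicate 2 it was 0.115. Dcn, the proteoglycan decorin, read 11.12, 7.97, 11.05 and 11.20 in KO and 7.26, 9.51, 11.32 and 9.82 in WT. Ogn, another matrix proteoglycan, read 10.07, 3.97, 10.23 and 10.50 in KO and 4.68, 7.75, 9.66 and 8.08 in WT. Serping1, the C1 inhibitor of the complement list, had the same array pattern, 8.33, 4.81, 8.40 and 8.22 in KO and 3.61, 6.36, 8.65 and 6.79 in WT. Aldh1a2, which makes retinoic acid in the meninges, did too, with 3.71 in the library labelled replicate 2 and 2.66 in sham WT replicate 1. Slc6a13, a meningeal transporter, read 2.98 in that library and 2.19, 2.71, 5.92 and 4.06 in WT, so that sham WT replicate 2 was low as well.

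**Figure D4:**
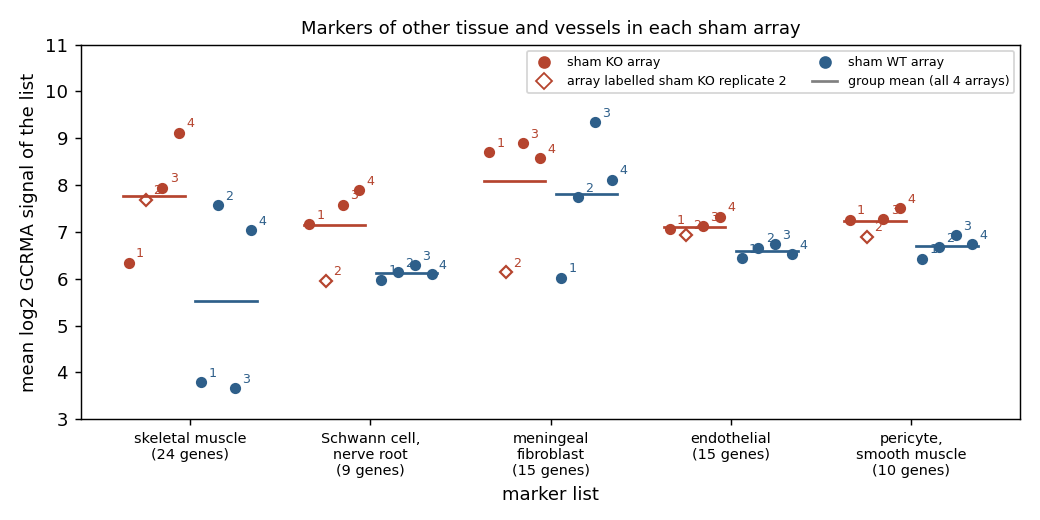
Mean log2 signal of 5 marker lists (x axis, number of genes in brackets) in each sham array, KO left of WT; digits are replicate numbers, lines are means of 4 arrays and the open diamond is the array labelled sham KO replicate 2. Muscle spans 3.66 to 9.12 over the arrays with overlap, the Schwann list is high in KO replicates 1, 3 and 4, and the endothelial list is 6.94 to 7.33 in KO and 6.44 to 6.74 in WT.

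Vessel genes were mildly brighter in KO arrays without reaching the threshold one by one. All 15 tested endothelial genes had a positive difference (median 0.52) and 0 were called, and their mean was 7.06, 6.94, 7.13 and 7.33 in KO and 6.44, 6.66, 6.74 and 6.52 in WT. The 10 tested pericyte and vascular smooth muscle genes were all positive too (median 0.45), 0 were called, and their mean was 7.26, 6.90, 7.28 and 7.51 in KO and 6.43, 6.68, 6.93 and 6.74 in WT. Cldn5, a tight junction protein of the blood-brain barrier, read 8.98, 9.16, 9.15 and 9.20 in KO and 8.58, 8.71, 8.64 and 8.19 in WT, 0.59 ± 0.29 (SE, adjusted p = 1). Kdr, a receptor for vascular endothelial growth factor, read 5.28, 5.35, 5.46 and 5.71 in KO and 4.76, 5.08, 4.59 and 4.79 in WT, and Esam, an endothelial adhesion molecule, 7.12, 6.99, 7.37 and 7.51 in KO and 6.57, 6.85, 6.44 and 6.57 in WT. Rgs5, a pericyte marker, read 10.82, 11.08, 10.81 and 11.20 in KO and 10.20, 10.54, 10.42 and 10.06 in WT. These 4 genes separated the groups by at least 1.5-fold with the library labelled sham KO replicate 2 on the KO side. At any size, 9 of the 15 endothelial genes had all KO arrays above all WT arrays, against 3.04% of all genes; the 6 others were Erg, Emcn, Slco1a4, Flt1, Tek and Slc2a1. Without that library 14 of the 15 endothelial genes were positive (median 0.56). Eng, a coreceptor for transforming growth factor beta, was at 0.01 and Slc2a1, the glucose transporter of barrier endothelium, at 0.17. Tie1 read 2.19 or less in all sham arrays. Acta2 and Tagln, contractile genes of smooth muscle, read 7.94, 7.45, 8.25 and 8.27 and 6.26, 4.35, 5.91 and 6.10 in KO, and 6.42, 7.15, 6.98 and 7.59 and 3.95, 4.11, 5.70 and 5.15 in WT, with overlap.

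**Figure D5:**
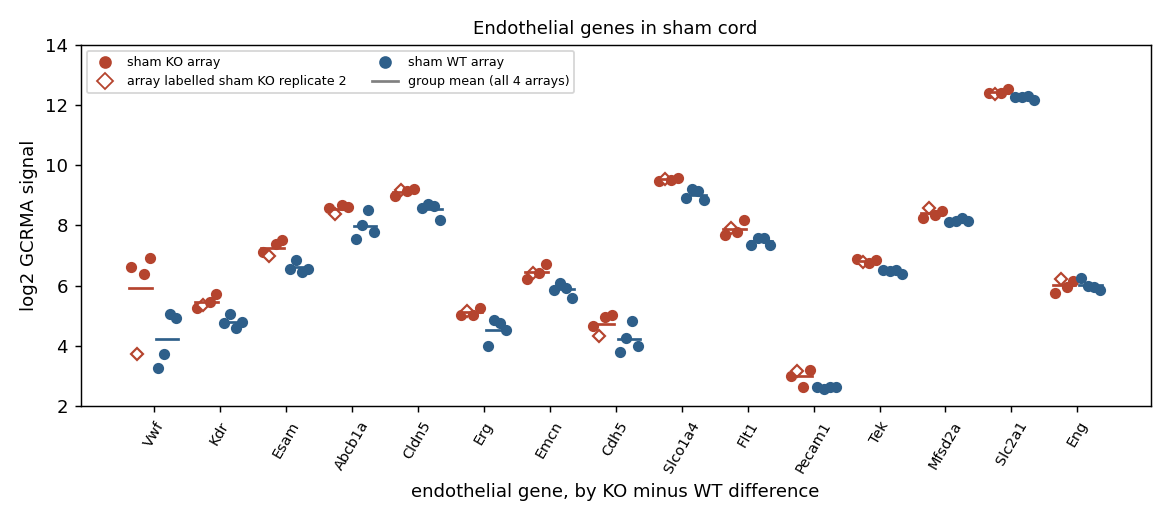
Log2 signal of the 15 tested endothelial genes in each sham array, ordered along the x axis by the KO minus WT difference, KO left of WT; points are arrays, lines are means of 4 arrays, and the open diamond is the array labelled sham KO replicate 2. Kdr, Esam and Cldn5 separate all KO from all WT arrays by at least 1.5-fold and 6 further genes by less, and for Vwf the diamond, at 3.73, lies among the WT arrays.

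Vwf was the 1 vessel gene that passed, and it did so without the library labelled sham KO replicate 2. It encodes von Willebrand factor, the clotting protein stored by endothelial cells, and is known to be patchy in brain capillaries and stronger in larger vessels. It read 6.62, 3.73, 6.40 and 6.92 in KO and 3.27, 3.72, 5.05 and 4.94 in WT, 1.67 ± 0.51 (SE, adjusted p = 0.638) with 8 arrays and 2.40 ± 0.43 (adjusted p = 0.0118) without that library. Without any further 1 of sham KO replicates 3 and 4 and sham WT replicates 1 and 2 it did not pass (adjusted p = 0.0525 to 0.153). Its lowest KO array was also the lowest KO array of the Schwann and meningeal lists, and its lowest WT array, replicate 1, was also the lowest WT array of both.

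Slc39a8 rose in sham KO cord. It encodes ZIP8, a transporter that brings zinc and manganese into cells. It read 6.31, 5.94, 5.86 and 6.17 in KO and 4.80, 5.21, 5.37 and 5.05 in WT, 0.96 ± 0.17 (SE, adjusted p = 0.0154), and 1.00 ± 0.19 without the library labelled replicate 2 (adjusted p = 0.0259). At day 1 the order was the other way, with 5.61 in KO and 6.14 in WT, and at days 3 and 7 the groups were close, with 7.42 in KO and 7.50 in WT and then 6.86 in KO and 6.99 in WT. The sham difference exceeded the mean injured one by 1.21 ± 0.20 (adjusted p = 0.0215), and by 1.25 without that library (0.0148). The call in sham was lost without any 1 of sham KO replicates 1 and 4 and sham WT replicates 1 and 4 (adjusted p = 0.0518 to 0.104, and 0.0687 to 0.223 when the library labelled replicate 2 was also left out). Of 15 tested genes for zinc and metal handling it was the 1 called. The others ran from -0.139 to 0.09, with Mt1 and Mt2, the metallothioneins that bind zinc, at -0.14 each.

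Slc34a3, a sodium-coupled phosphate transporter best known from kidney, fell in sham KO cord. It read 5.62, 5.04, 5.17 and 5.56 in KO and 5.72, 5.89, 6.30 and 6.69 in WT, -0.80 ± 0.14 (SE, adjusted p = 0.0154), and -0.70 ± 0.15 without the library labelled replicate 2 (adjusted p = 0.0759). It also failed without sham KO replicate 3, sham WT replicate 3 or sham WT replicate 4 (adjusted p = 0.0646 to 0.103 over these and replicate 2). In the injured groups it averaged 4.39 to 4.61 in both genotypes.

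Some further genes passed after the library labelled sham KO replicate 2 was left out. Gas2l3, which links actin and microtubules, differed by 1.24 ± 0.24 (SE, adjusted p = 0.0332) on 1455980_a_at and by 1.47 ± 0.29 (adjusted p = 0.0395) on 1453416_at. On 1455980_a_at it read 7.30, 6.98, 7.98 and 8.30 in KO and 6.83, 6.51, 6.90 and 6.25 in WT, and its injured group means were 7.81 to 8.98. Cnmd, chondromodulin, a cartilage protein that restrains vessel growth, read 4.35, 3.84, 5.05 and 5.18 in KO and 3.54, 3.96, 3.68 and 3.73 in WT, 1.13 ± 0.20 (adjusted p = 0.0118). Slc2a12, a glucose transporter, read 5.27, 4.09, 5.26 and 4.44 in KO and 4.00, 4.15, 4.21 and 4.28 in WT, 0.83 ± 0.15 (adjusted p = 0.0146). Irs4, an insulin receptor substrate, read 2.86, 4.21, 2.93 and 3.37 in KO and 3.56, 4.04, 4.15 and 4.21 in WT, -0.94 ± 0.15 (adjusted p = 0.00185). All these differences are those without that library, whose values lay within or next to the WT range for each gene. Leaving out 1 further array ended the calls of Gas2l3 (for 5 of 7 arrays on each probe set), Cnmd (3 of 7) and Slc2a12 (3 of 7), with adjusted p of 0.0528 to 0.422. For Irs4 it ended none. The sham difference exceeded the mean injured one by 1.60 for Cnmd (adjusted p = 0.000961) and by -1.02 for Irs4 (adjusted p = 0.00651).

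Genes with the next smallest p-values after those called were named by rule, 10 in each direction, at any distance from the threshold. With 8 arrays, the smallest p-values among genes not called and higher in KO were those of Lgr6, a receptor for R-spondins, at 0.82 ± 0.17 (SE, adjusted p = 0.0822), Dapk1, Fbxw5 (0.36), Gas2l3, C030006K11Rik (0.52), Cnmd, Plekhg2 (1.12), AW011738 (0.55), Prtg (0.35) and Jcad (0.49). Lower in KO were Fzd9, a Wnt receptor, at -0.53 ± 0.11 (adjusted p = 0.0822), Niban3 (-0.41), Nkd2 (-0.46), Zfyve1 (-0.32), Fam111a (-0.89), Ctr9 (-0.29), Cd52 (-0.76), C530044C16Rik (-1.06), Kif6 (-0.51) and Skida1 (-0.39). Jcad, a protein of endothelial cell junctions, was the brightest of the higher ones, at 9.96, 10.06, 10.15 and 10.10 in KO and 9.39, 9.62, 9.69 and 9.63 in WT.

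Microglial genes mostly had negative differences in sham KO cord, with 0 called. Of 15 tested microglial genes, 1 had a positive difference and the median was -0.247 (3 and -0.166 with 3 KO arrays), and the mean of the list was 7.34 to 7.62 in KO and 7.52 to 7.83 in WT. Tyrobp, a signalling adaptor of microglia, read 9.07, 8.63, 9.16 and 9.01 in KO and 9.44, 9.35, 9.41 and 9.47 in WT, -0.45 ± 0.17 (SE, adjusted p = 0.905), and Tmem119, a microglial marker, averaged -0.47 with overlap. Cd52, a surface glycoprotein of leukocytes, read 6.51, 5.43, 6.58 and 6.54 in KO and 6.87, 7.32, 6.93 and 6.99 in WT. The C1q genes named above belong to both the microglial and the complement list. All 7 tested neutrophil genes were negative (median -0.597) with wide overlap, and the median was -0.291 without the library labelled replicate 2 in KO, -0.163 without sham WT replicate 2, -0.908 without sham KO replicate 3 and -1.07 without sham WT replicate 3. S100a9 read 9.95, 9.47, 11.28 and 10.85 in KO and 11.66, 12.38, 10.03 and 10.57 in WT. The 2 tested red cell genes had means of 4.50, 4.49, 5.93 and 5.37 in KO and 5.94, 6.38, 4.54 and 6.67 in WT, with overlap; sham WT replicate 4 was the highest array for them but not for the neutrophil genes.

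Lists for the other resident cells of the cord had no calls and medians between -0.132 and 0.132. The 19 astrocyte genes had a median of 0.009, a range of -0.253 to 0.26 and 0 calls. Gfap, the astrocyte filament protein that increases with reactivity, read 11.95, 11.56, 11.73 and 11.76 in KO and 12.07, 11.84, 12.22 and 11.89 in WT, -0.25 ± 0.14 (SE, adjusted p = 1). Fgfr3, an astrocyte receptor, read 11.35 to 11.38 in KO and 10.86 to 11.20 in WT, 0.26 ± 0.24. The 17 reactive astrocyte genes had a median of 0.077, with list means of 5.89 to 6.71 in KO and 6.17 to 6.50 in WT, against 9.14 to 10.89 in the injured arrays. The medians were -0.085 for 14 oligodendrocyte and central myelin genes, 0.032 for 12 precursor genes, -0.003 for 17 neuronal cytoskeleton and synapse genes, -0.003 for 8 excitatory and inhibitory neuron genes, 0.132 for 6 cholinergic motor neuron genes and -0.132 for 15 dorsal horn neuropeptides, with 0 calls in each. Leaving out 1 sham array moved these medians within -0.257 (neuropeptides, without sham KO replicate 1) and 0.205 (motor neuron genes, without sham KO replicate 1), and turned the sign for the astrocyte, reactive astrocyte and both neuronal lists. Of the 14 central myelin genes 3 were positive. The median of that list ran from -0.137 (without sham WT replicate 2) to -0.033 (without sham WT replicate 4). The motor neuron median was 0.03 with 3 KO arrays, the library labelled replicate 2 left out. Tac2, a dorsal horn tachykinin precursor, read 8.98 to 9.28 in KO and 9.34 to 9.99 in WT, with no overlap and a difference of -0.50 ± 0.72 (SE, adjusted p = 1). That SE includes the spread of the injured arrays and is not that of the sham arrays alone.

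The process lists that follow had no call, while the immediate early, complement and zinc lists described above had 1 each. Of 16 tested cholesterol synthesis genes, 1 was positive, 0 were called, and the median was -0.112. Of 47 cell cycle genes, 14 were positive with a median of -0.097 and 0 calls. Mki67, a proliferation marker, read 3.71, 2.72, 5.74 and 4.25 in KO and 5.17, 6.67, 4.20 and 5.73 in WT, -1.34 ± 0.47 (SE, adjusted p = 0.838), with overlap. The medians were -0.087 for 18 interferon-induced genes, 0.039 for 13 antigen presentation genes, -0.031 for 21 heat shock and unfolded protein genes, 0.08 for 15 clock genes and 0.174 for 13 glucocorticoid and fasting genes, and 0 of these were called. Single arrays set the sign of the interferon and antigen presentation medians. With the library labelled replicate 2 left out of the KO arrays, the interferon median was 0.041 with 10 of 18 positive, against 5 of 18 with 8 arrays, and it ran from -0.245 (without sham WT replicate 1) to 0.122 (without sham WT replicate 3). The antigen presentation median was 0.158 without that library and -0.059 without sham KO replicate 4. The lowest and highest medians on leaving out 1 array were -0.157 and -0.061 for cholesterol synthesis (without sham WT replicates 2 and 4) and -0.124 and -0.053 for the cell cycle (without sham WT replicate 3 and sham KO replicate 1). They were 0.075 and 0.158 for clock genes (without sham WT replicates 2 and 3) and 0.101 and 0.207 for glucocorticoid genes (without sham KO replicate 4 and sham WT replicate 1).

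The calls depended on which arrays were in the fit and on how they were grouped. When the fit used the 8 sham arrays alone, 2 probe sets were called, and Hoxd10 (adjusted p = 0.00415) was the only 1 of the 9 genes among them; the Ntrk2 probe sets had an adjusted p of 0.407 and 0.397, Cd59a of 0.156 and Hoxa10 of 0.237. With the 7 arrays left without the library labelled replicate 2, 10 were called, and Cd59a, Hoxd10 and 1 probe set of Egr2 were among them. Grouping 2 day 1 WT arrays by their source and time fields in place of their titles puts 1 of them among sham WT, so the sham WT mean changes as well as the spread. This grouping left 5 probe sets called, those of Ntrk2, Cd59a and Hoxc10, and ended the calls of Hoxa10, Hoxd9, Hoxd10, Egr2, Slc39a8 and Slc34a3. On Egr2 1427682_a_at all arrays titled day 1 WT read at least 7.27, against at most 3.84 in the arrays titled sham WT.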

How the data were processed

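Total RNA of thoracic spinal cord was extracted with Trizol and 1 µg was made into biotinylated cRNA for Affymetrix mouse arrays, per the labels' protocols. Per the submitters' processing notes the authors computed signals by GCRMA (version not stated), which corrects background by probe sequence, normalises between arrays and summarises probes. The deposited values are in log2 units, per the labels, and were used as given. GCRMA places undetected probe sets at a common floor, which limits differences there. Arrays were grouped by title, and 2 day 1 WT arrays whose source and time fields disagree with their title kept the title. No 2 arrays were identical (0 pairs). Where nothing says that replicates came from separate animals, p-values measure only the spread between these arrays.

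Of 45101 probe sets, 64 array controls were left out, and 24573 reaching a log2 value of 4 on 4 or more arrays were kept. Gene names came from the platform annotation: 34958 probe sets had 1 symbol, 932 several and 9160 none, and 34754 matched RefSeq (GRCm38.p6), used for names, gene order and promoters. Of the kept probe sets 20926 named 1 gene, and the brightest stood for each of 11998 genes. One mean per group (8 groups) was estimated from 34 arrays, or from 33, with limma 3.58.1 in R 4.3.3 (lmFit, eBayes, 26 or 25 residual degrees of freedom) and tested on simulated data. Adjusted p-values are Benjamini-Hochberg values with a threshold of 0.05. Named were all Ntrk2 probe sets, the called genes, the 10 next smallest p-values in each direction, Hox genes and up to 5 members of a list with the largest absolute difference, some left out where they repeat; other members were named after their values were seen. The members and lists were chosen with earlier results of these data known. Alternatives were the arrays in the fit, the filter, the prior, array weights, normalization, gene means, the label conflict, a replicate block and leaving out each array.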

Additional observations from a re-analysis of the deposited data

Results flagged for a closer look

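Values of 93 named probe sets in each genotype and 10 sets of list means, 196 groups of 4 arrays in all, were searched for an array far from the other 3, and 20 such groups were found. The limit used is set so that chance alone would flag about 1 in 20 independent groups; these groups share arrays and genes, and some genes were named after their values were seen, so the count is not to be read against that rate. The library labelled sham KO replicate 2 was the array apart in 10 of them: high for Ntrk2 1435196_at (8.59), and low for Cd59a (9.71 on 1418710_at and 8.97 on 1429830_a_at), Egr2 1427682_a_at (3.78), Vwf (3.73), Cd52 (5.43), Ogn (3.97), Dcn (7.97), Serping1 (4.81) and the meningeal list mean (6.14). Its Ntrk2 signal is the reason it was singled out beforehand, and Vwf passed only with that library left out. The count of 10 is therefore no measure of how unusual that library is. Sham KO replicate 1 was apart for Hoxd10 (low, 6.73), Nkd2 (high, 4.14) and Skida1 (low, 3.57). Among sham WT arrays, replicate 1 was high for Fbxw5 (5.89), replicate 2 was high for Ntrk2 1458622_at (11.14) and Dhh (3.41), replicate 3 was low for C030006K11Rik (4.18) and Birc5 (4.05), a survivin gene of dividing cells, and high for Hoxc8 (11.17), and replicate 4 was low for Fgfr3 (10.86).

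The sham difference between genotypes was unlike the mean difference after injury, by the test of that contrast, for Slc39a8 (1.21) and Hoxa10 (2.37) with 8 sham arrays. Without the library labelled sham KO replicate 2 this held for Slc39a8 (1.25), Hoxa10 (2.41), Egr2 (2.75 on 1427682_a_at and 2.48 on 1427683_at), Cnmd (1.60) and Irs4 (-1.02).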

How the results depend on the processing

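With 8 sham arrays 13 probe sets were called, and 11 to 13 under median centring, quantile normalization, the filter over the sham arrays, the intensity trend and leaving out the conflicting arrays. Here and below, the setting with gene means counts genes in place of probe sets. It gave 9 genes, and the 13 probe sets name 9. Array weights gave 94, no filter 45, the sham arrays alone 2, and grouping by source and time 5. Leaving out 1 sham array gave 8 (sham KO replicate 4) to 20 (the library labelled sham KO replicate 2). Without that library the 20 calls became 205 with array weights, 64 with no filter, 10 with the sham arrays alone, 6 by source and time and 13 with quantile normalization, and leaving out 1 further array gave 9 to 49, the highest without sham WT replicate 3. Gene means then gave 12 genes, and the 20 probe sets name 12. The contrast of the sham with the injured difference had 2 calls, and 23 with array weights, 17 with no filter, 4 when centred, 5 with gene means, 0 by source and time, and 0 to 6 leaving out 1 array (0 without sham KO replicate 1 or 4, 6 without the library labelled replicate 2). Without that library its 6 calls became 90 with array weights, 23 with no filter, 3 with the filter over the sham arrays, 0 by source and time, and 4 to 27 leaving out 1 array (27 without sham WT replicate 3). Why these counts moved was not tested beyond what each setting itself changes.

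The labels do not say whether replicate numbers pair the arrays. Deviations of same-numbered KO and WT arrays from their group means correlated at -0.0154, 0.00513, 0.0717 and 0.143. Those of unlike-numbered arrays correlated at -0.324 to 0.425. With 4 arrays in each group these values cannot show whether equal numbers mark a shared batch or litter. With the replicate block 13 probe sets were called, 12 of them shared with the fit without it; Hoxd10 was not (adjusted p = 0.0745) and Fbxw5 was added. Without the library labelled replicate 2 the block gave 15, of which 13 were shared, and Slc39a8, Dapk1, both Gas2l3 probe sets and 3 without a single gene name were not (adjusted p = 0.0536 to 0.0862). It gave 5 for the sham against injured contrast (6 without it).

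Of 1751 differences of 93 named probe sets under these settings, 1660 kept direction and side of the threshold, 53 lost the call, 37 gained one and 1 reversed, Tagln (-0.147 by source and time). Without that library 1513 of 1657 were kept, 106 lost, 38 gained and 0 reversed. These totals mostly count probe sets that were not called and stayed so. Only a called probe set can lose a call, and 13 were called with 8 arrays and 20 without that library. With 8 arrays a call held in 8 of 18 settings (Hoxd9) to 17 of 18 (Hoxc10). Without that library it held in 4 of 17 (1447237_at) to 17 of 17 (Cd59a). The mean of the tested Ntrk2 probe sets, which joins lost and kept ones, differed by -1.60, and by -2.06 without it. Both scalings moved the median of all probe sets by at most 0.0027. Signal near the floor limits Hoxd10, Ntrk2 1435196_at and the caudal Hox genes beyond group 10.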
